A study of Equus caballus with 15 samples.

Results

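T cells recognize antigen through a receptor coupled to the CD3 chains, and 41 genes of that receptor complex, its signaling proteins, its costimulatory and inhibitory receptors, and the transcription factors and homing receptors of T cells were followed in cultures of equine monocyte-derived macrophages. The members were taken by gene symbol from a fixed list of 41, and 40 of them were found among the 16932 genes of the expression table. CD8B was not analysed here. Polyadenylated RNA was sequenced from 15 libraries, 3 for each of 5 conditions. The macrophages were grown from blood mononuclear cells of 2 horses over 5 days with human M-CSF at 30 ng/ml, so all conditions share this origin and the mononuclear cells they were grown from also contain lymphocytes. Untreated cultures received no stimulus. Cultures of the other 4 conditions received IL-1ß at 10 ng/ml for 24 h, either alone or together with an orthobiologic therapy (OT) at 25% of the medium. The first OT was medium conditioned by bone marrow mesenchymal stromal cells (MSC-CM). Another was platelet rich plasma after lysis of its platelets (PRP lysate), and the last was autologous conditioned serum (ACS), for which blood is incubated so that cytokine inhibitors accumulate. Libraries of an OT differ in the donor horse of the product. The same 3 horses gave blood and marrow for all 3 OTs, so the donors are shared between the OTs that the tests treat as independent, and the sources used here do not tie each library to its horse. Untreated and IL-1ß libraries are technical replicates of the macrophages, so their spread, and p-values that rest on it, cover less than the variation between horses.

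On a T cell, CD3 chains carry the signal of the antigen receptor into the cell, where the kinase LCK phosphorylates them and ZAP70 is recruited to pass the signal to the adaptor LAT. CD28 and ICOS add a costimulatory signal, whereas CTLA4, PDCD1, LAG3 and TIGIT restrain it. Macrophages are not known for this receptor, but they present antigen and carry the ligands of these receptors, and CD4, IL2RA, CCR7 and several other members are also known from monocytes, macrophages or dendritic cells.

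Expression values are read counts scaled to an equal total per library (CPM), which correct for sequencing depth and not for transcript length, so levels are compared here between libraries and not between genes. The libraries held 28410735 to 47894072 reads on genes, with a median of 37215812. A gene was tested when its mean over the 15 libraries was at least 1 CPM, which left 11628 genes and 38 of the members. Fold changes are differences of mean log2(CPM + 1), given with the standard error, and limma with Benjamini-Hochberg adjustment over all 11628 genes provided the p-values. A call required an adjusted p of at most 0.05 together with a change of at least 2-fold. IL-1ß replicate 3 and PRP lysate replicate 1 stood apart from the other libraries. Against the 2 other libraries of its condition, the median difference of genes spanning under 10 kb was 0.23 (log2) in IL-1ß replicate 3 and 0.29 in PRP lysate replicate 1, whereas that of genes spanning over 50 kb was -0.94 and -0.55. Both libraries entered all comparisons, and an analysis of the other 13 libraries was added after the data were seen. The members that passed there are named for each comparison, with values for those described in detail. Whether their RNA or their cells differed was not tested.

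T cell genes were readily detected in these macrophage cultures. Of the 40 members, 37 were at 1 CPM or more in all 15 libraries, 30 at 10 CPM or more and 12 at 100 CPM or more. All 10 listed T cell markers, which are themselves members, were detected, and their sum was between 779.9 and 1148 CPM in untreated libraries, 1110.1 and 2111 CPM with IL-1ß, 1548 and 1703 CPM with MSC-CM, 989 and 2173 CPM with PRP lysate, and 938 and 1220.0 CPM with ACS. The labelled cell type was present as well: 12 of 14 listed macrophage markers were found, and their sum ranged from 2564 CPM in PRP lysate replicate 1 to 7002 CPM in IL-1ß replicate 1. On average CD68 and MRC1 made up most of that sum, whereas CD14, ITGAM, MARCO, C1QB and C1QC averaged 2.49, 2.36, 2.89, 4.42 and 6.82 CPM over the 15 libraries. Of 9 B cell markers 8 were found, 2 of them under 1 CPM on average, with sums of 53.3 to 98.3 CPM over all libraries. Markers of natural killer and cytotoxic cells, which overlap in use with cytotoxic T cells, summed to between 273 and 1033 CPM. In bulk RNA, more cells of a type and more RNA per cell cannot be told apart, and this holds for every difference below.

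CD3E (ENSECAG00000014635, chromosome 7, 26728316 to 26738870 in EquCab3.0) encodes the epsilon chain of the receptor complex. Its levels were 156, 140.4 and 219.5 CPM in the untreated libraries, 190.1, 255 and 520.5 CPM with IL-1ß alone and 342, 288 and 274 CPM with MSC-CM. With PRP lysate they were 507, 172 and 209 CPM, and with ACS 171, 172 and 207 CPM. MSC-CM libraries lay above all untreated and ACS libraries, and IL-1ß replicate 3 and PRP lysate replicate 1 were at the top of the whole range. The delta chain gene CD3D (ENSECAG00000018190, chromosome 7, 26744888 to 26747975) lies 6.02 kb from CD3E, and CD3G (ENSECAG00000005081, chromosome 7, 26749782 to 26756310), the gamma chain gene, follows after 1.81 kb. CD3D was at 56.7, 72.7 and 91.3 CPM untreated, 90.8, 94.6 and 119.7 CPM with IL-1ß, 121, 149 and 136 CPM with MSC-CM, 135, 93.5 and 115 CPM with PRP lysate and 86.8, 91.2 and 115 CPM with ACS. CD3G was at 74.96, 71.8 and 106 CPM untreated, 106, 117 and 191 CPM with IL-1ß, 155, 148 and 136 CPM with MSC-CM, 193, 97.5 and 126 CPM with PRP lysate and 88.5, 91.1 and 118 CPM with ACS. For these 3 neighbouring genes the MSC-CM libraries did not overlap with the untreated or the ACS libraries. CD247 (ENSECAG00000020158, chromosome 5, 4055666 to 4127645), which encodes the zeta chain that carries most of the signaling motifs, spans 72.0 kb on another chromosome and was at 32.4, 44.2 and 56.9 CPM untreated, 60.1, 70.6 and 60.5 CPM with IL-1ß, 92.2, 108 and 87.02 CPM with MSC-CM, 101, 56.1 and 61.00 CPM with PRP lysate and 49.9, 58.7 and 69.7 CPM with ACS. Summed over the 4 chains, the complex reached 374 ± 85.8 CPM (SD, n = 3) in untreated cultures, 626 ± 235 CPM with IL-1ß, 679 ± 40.6 CPM with MSC-CM, 622 ± 275 CPM with PRP lysate and 439 ± 61.2 CPM with ACS. The spread was smallest with MSC-CM, and with IL-1ß and PRP lysate it was widened by the library that stood apart in each.

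**Figure D1:**
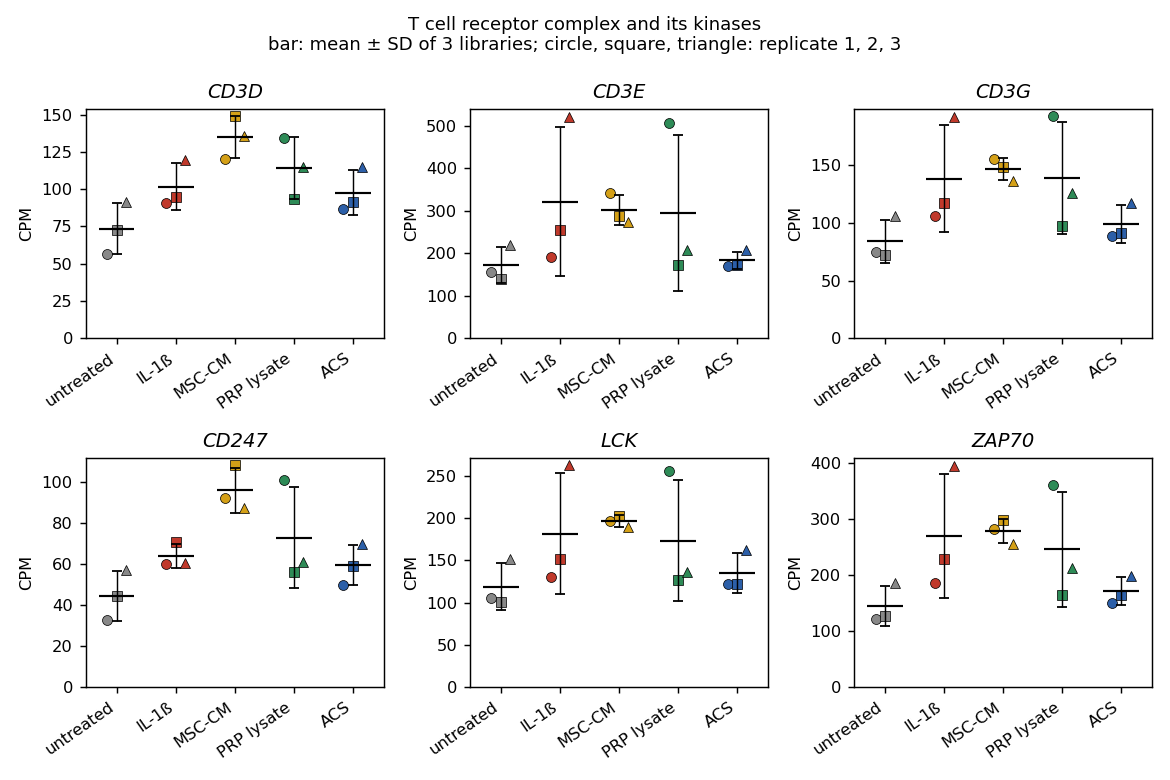
Levels of CD3D, CD3E, CD3G, CD247, LCK and ZAP70 in CPM (vertical axis) in each library of the 5 conditions, with the mean and SD of 3 libraries. In all 6 panels the MSC-CM libraries lie above the untreated and ACS libraries, and IL-1ß replicate 3 and PRP lysate replicate 1 (CD3E at 520.5 and 507 CPM) lie above the other libraries of their condition, except for CD247 with IL-1ß.

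Although the complex varied 2.92-fold over the 15 libraries, from 321 to 935 CPM in sum, a set of members followed it in nearly fixed proportion. This was computed after the levels had been seen, by dividing each of the other 34 tested members by the sum of the 4 chains in the same library, and it is a description without a test. ZAP70 ranged from 37.9% to 44.3% of the sum in all 15 libraries, a coefficient of variation of 4.88%. SKAP1, an adaptor that links the receptor to integrins, was at 14.5% to 17.1%, with a coefficient of 5.06%. CD2, the adhesion receptor for CD58, was at 30.8% to 39.6%, and LCK at 26.7% to 32.8%, with coefficients of 5.88% and 5.90%. CD6 and CD5, neighbouring genes for receptors that dampen T cell signaling, had coefficients of 6.80% and 8.36%, and UBASH3A, a phosphatase-like suppressor of the receptor signal, had 7.31%. These 7 of 34 members had a coefficient of at most 10%, which held for 0.353% of the 11624 tested genes outside the 4 chains, with a median coefficient of 37.5%. Ratios to the same denominator share its errors, and the points share library, depth and the origin of the cells.

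**Figure D2:**
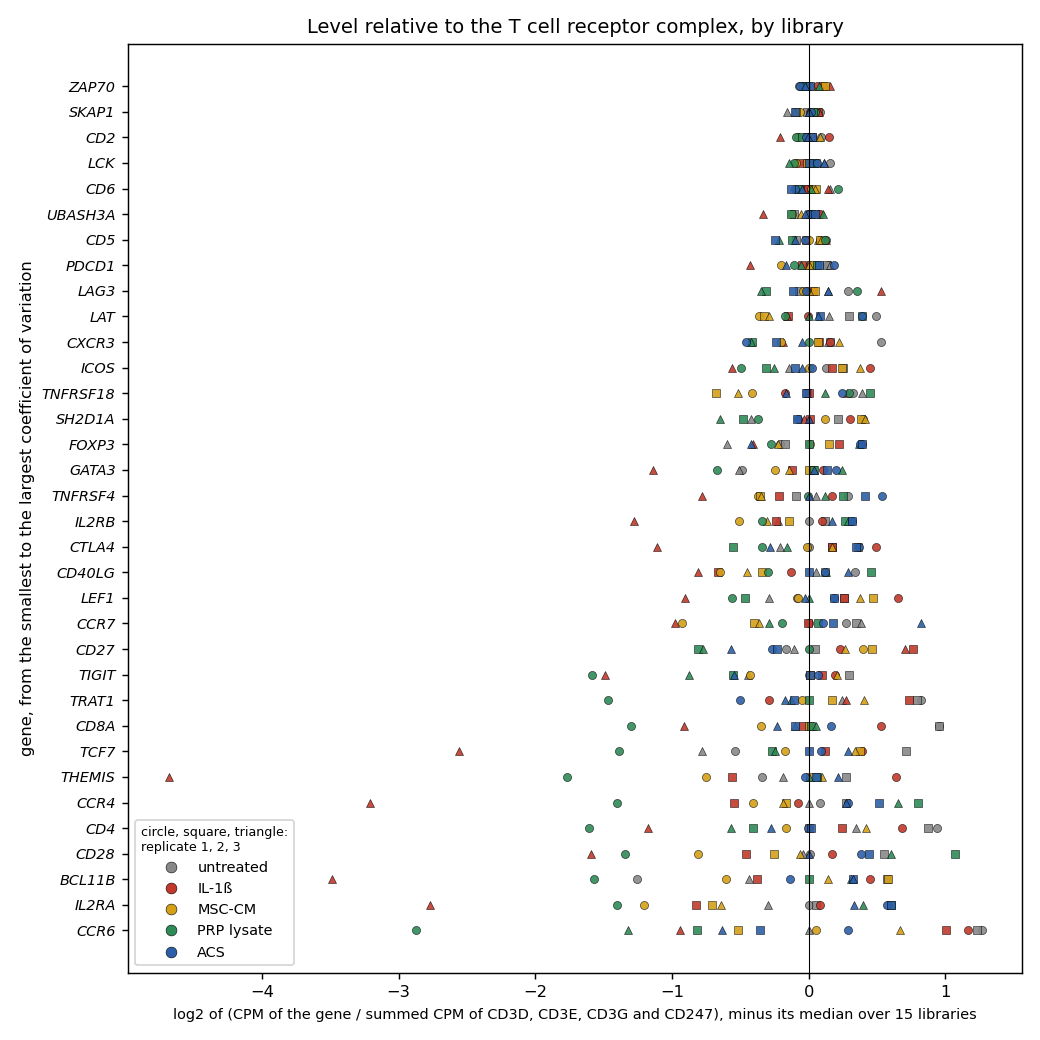
Each point is a library, and the horizontal axis is the log2 of a member's CPM divided by the summed CPM of the 4 CD3 chains, minus the median of that value over 15 libraries, with members ordered from the smallest to the largest coefficient of variation. ZAP70, SKAP1, CD2, LCK, CD6, UBASH3A and CD5 form narrow columns, whereas IL-1ß replicate 3 and PRP lysate replicate 1 fall far to the left for members such as THEMIS, CCR4, BCL11B and IL2RA.

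The remaining members did not keep this proportion. PDCD1 had a coefficient of 10.7% and LAG3 of 16.5%, while 9 members exceeded 40%, namely CD4, CD8A, THEMIS, CD28, BCL11B, TCF7, IL2RA, CCR4 and CCR6. Of those 11624 genes, 42.1% exceeded 40%. THEMIS, a regulator of thymic selection that spans 177 kb, was at 0.795 CPM in IL-1ß replicate 3, against 15.96 and 8.33 CPM in the other libraries of that condition. Without both libraries that stood apart, 8 members were at or under 10% and CCR6 was the only one of the 34 over 40%, against 0.697% and 17.01% of the 11624 genes.

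Of the 38 tested members, none was called changed by IL-1ß alone (background over all genes 0.292%). At an unadjusted p of at most 0.05, 13 were higher and 0 lower, against 6.45% and 6.5% of all genes. edgeR on reads recovered from the CPM called 0 and DESeq2 called 1 (background of DESeq2 1.24%). The median member was higher by 0.49 (log2) with IL-1ß, while the median of all 11628 genes was -0.07. In 12 members the lowest IL-1ß library exceeded the highest untreated one, which was so for 7.98% of all genes, and in 0 members did the opposite hold. B cell markers differed without overlap too, at a sum of 83.3 to 98.3 CPM with IL-1ß and 63.3 to 67.4 CPM untreated. CD22 was the largest part of both sums (means of 38.9 and 24.2 CPM), and BANK1 went the other way (16.6 and 20.8 CPM). The part of these markers in the difference was not tested. FOXP3, the master regulator of regulatory T cells, was closest to a call, with a fold change of 1.07 ± 0.21 and an adjusted p of 0.0558 (limma). Without the 2 libraries that stood apart, 4 members passed an adjusted p of 0.05 and all 4 were higher (background 2.47% in either direction), namely FOXP3 at 1.02, CD27 at 0.92, LEF1 at 0.88 and ICOS at 0.64. Of these, FOXP3 alone also reached 2-fold, edgeR called 0 of the 38 without these libraries, and the analysis rested on 2 IL-1ß libraries.

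Addition of MSC-CM to IL-1ß left no member called by limma, edgeR or DESeq2 (background 0.0%), and 5 members were higher and 0 lower at an unadjusted p of at most 0.05, against 4.9% and 0.697% of all genes. The median member was 0.21 higher than with IL-1ß alone, but the median of all genes was 0.16 higher too. With RLE size factors, which set the median of all genes to 0.00, the median member was at 0.03 and the members split into 23 higher and 15 lower instead of 32 and 6. In 8 members all MSC-CM libraries lay above all IL-1ß libraries, against 7.25% of all genes. Leaving out the 2 libraries that stood apart, the median member was at 0.36 and that of all genes at 0.05, and 23 members did not overlap in this direction, against 14.9% of all genes. LCK then moved from 0.18 to 0.48 and CD3E from 0.03 to 0.44, and 0 members passed the adjusted p.

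With all libraries, limma called members only in comparisons of PRP lysate with IL-1ß alone or MSC-CM. DESeq2 also called 1 member for IL-1ß against untreated and 3 for ACS against IL-1ß (backgrounds of DESeq2 1.24% and 4.01%). Compared with IL-1ß alone, CCR6 was lower and was the 1 member called of 38, not above the background of 3.09%. Compared with MSC-CM, CCR6, CD4 and TIGIT were lower, 3 of 38 members (background 2.61%), and ICOS passed the adjusted p without reaching 2-fold, so that 4 members passed the adjusted p and were lower (background 2.78%). The CCR6 call and the ICOS pass depended on how replicate numbers were handled, as described with CCR6 below. The median member was at -0.04 against IL-1ß and -0.25 against MSC-CM, with medians of 0.11 and -0.09 over all genes. In 9 members all PRP lysate libraries lay below all MSC-CM libraries, against 12.1% of all genes. Without the 2 libraries that stood apart, PRP lysate replicate 1 among them, 8 members were called lower than with MSC-CM (background 2.83%), and 16 were lower at an adjusted p of at most 0.05 (background 9.86%). The 8 were CD4, SH2D1A, CD27, ICOS, CTLA4, TIGIT, LEF1 and CCR6, and the median member was then at -0.53. The others that were lower at the adjusted p were CD3E, CD247, CD2, CD5, LCK, LAG3, TCF7 and CXCR3. With all libraries, B cell markers summed to 53.3 to 78.1 CPM with PRP lysate, below the MSC-CM range of 92.2 to 97.3 CPM. Markers of natural killer and cytotoxic cells summed to 452.8 to 1033 CPM and 389 to 459 CPM, with PRP lysate replicate 1 at the top. On average PRF1, GZMA, NKG7 and TBX21 made up most of this sum and had higher means with PRP lysate, as did KLRD1. NCR1, KLRF1, KLRB1, GZMK and EOMES had lower means with PRP lysate, such as 6.77 against 13.3 CPM for EOMES. The part of these cells in the differences was not tested. Without the 2 libraries that stood apart, IL2RA at 0.80 and CD28 at 0.66 were higher than with MSC-CM at the adjusted p. In every fit without these libraries, here and below, PRP lysate rested on replicates 2 and 3 and IL-1ß alone on replicates 1 and 2. Against IL-1ß alone, 10 members passed the adjusted p without these libraries (background 9.28%). CD4, SH2D1A, CD27, ICOS, CTLA4, TIGIT and CCR6 were lower there, and CCR4 at 0.91 was higher beside CD28 and IL2RA. Both comparisons use the same PRP lysate libraries.

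Under ACS, 34 of 38 members were lower than with MSC-CM, with a median of -0.57 against -0.04 over all genes. In 27 members all 3 ACS libraries lay below all 3 MSC-CM libraries, against 22.2% of all genes, and in 1, IL2RA, all lay above. B cell markers also differed without overlap, at a sum of 66.2 to 72.4 CPM with ACS and 92.2 to 97.3 CPM with MSC-CM. CD22 was the largest part of both sums (means of 31.0 and 48.6 CPM), and BANK1 went the other way (19.5 and 17.5 CPM). Of 7 listed neutrophil and mast cell markers, 4 were found and 3 of them were under 1 CPM on average. Their sum, almost all CSF3R, the receptor of a granulocyte growth factor, which monocytes carry too, was 530.9 to 759.8 CPM with ACS, 485 to 546 CPM with PRP lysate and 269 to 431 CPM with MSC-CM. CSF3R was higher with ACS than with MSC-CM (0.89 ± 0.18, limma, adjusted p = 0.0232), a pass lost without ACS replicate 1 or 2 or MSC-CM replicate 2 or 3. The part of these cells in the difference was not tested. None was called (background 1.23%). At an unadjusted p of at most 0.05, 20 members were lower and 0 higher, against 8.8% and 4.74% of all genes, and edgeR and DESeq2 both called 0. CD4 and ICOS passed the adjusted p without reaching 2-fold (background of lower genes 1.1%). Both libraries that stood apart lie outside this pair of conditions but enter the common estimate of the spread. When they were left out, 23 of 38 members were lower at an adjusted p of at most 0.05 (background 9.13%), while the fold changes stayed as they were. They were CD3E, CD3G and CD247 of the receptor complex, CD2, CD4, CD5, CD6 and CD8A, LCK, ZAP70, SKAP1, TRAT1, SH2D1A and UBASH3A, CD27, ICOS, CTLA4, PDCD1, LAG3 and TIGIT, LEF1, CCR6 and CXCR3, and IL2RA was higher. CD27 was the 1 member that also reached 2-fold (background 1.27%). Against IL-1ß alone, ACS gave no call (background 2.21%), and edgeR called 0 and DESeq2 3 (background of DESeq2 4.01%). At an unadjusted p of at most 0.05, 2 members were higher and 5 lower, against 12.1% and 8.38% of all genes. The median member was at -0.35 against 0.13 over all genes, and at -0.22 against 0.01 without the 2 libraries that stood apart, where CD3E went from -0.68 to -0.27 and LCK from -0.37 to -0.07. Without the 2 libraries, 5 passed the adjusted p (background 5.96%), IL2RA higher and CD4, CD27, ICOS and CCR6 lower. Of these, CCR6 alone also reached 2-fold, at -1.36, and the share of all genes that did so is not given. PRP lysate and ACS gave no member called between them (background 0.0946%), with 1 member lower in PRP lysate at an unadjusted p of at most 0.05 (background 3.39%) and 0 called by edgeR or DESeq2. The 3 OT conditions share the IL-1ß libraries as their control.

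**Figure D3:**
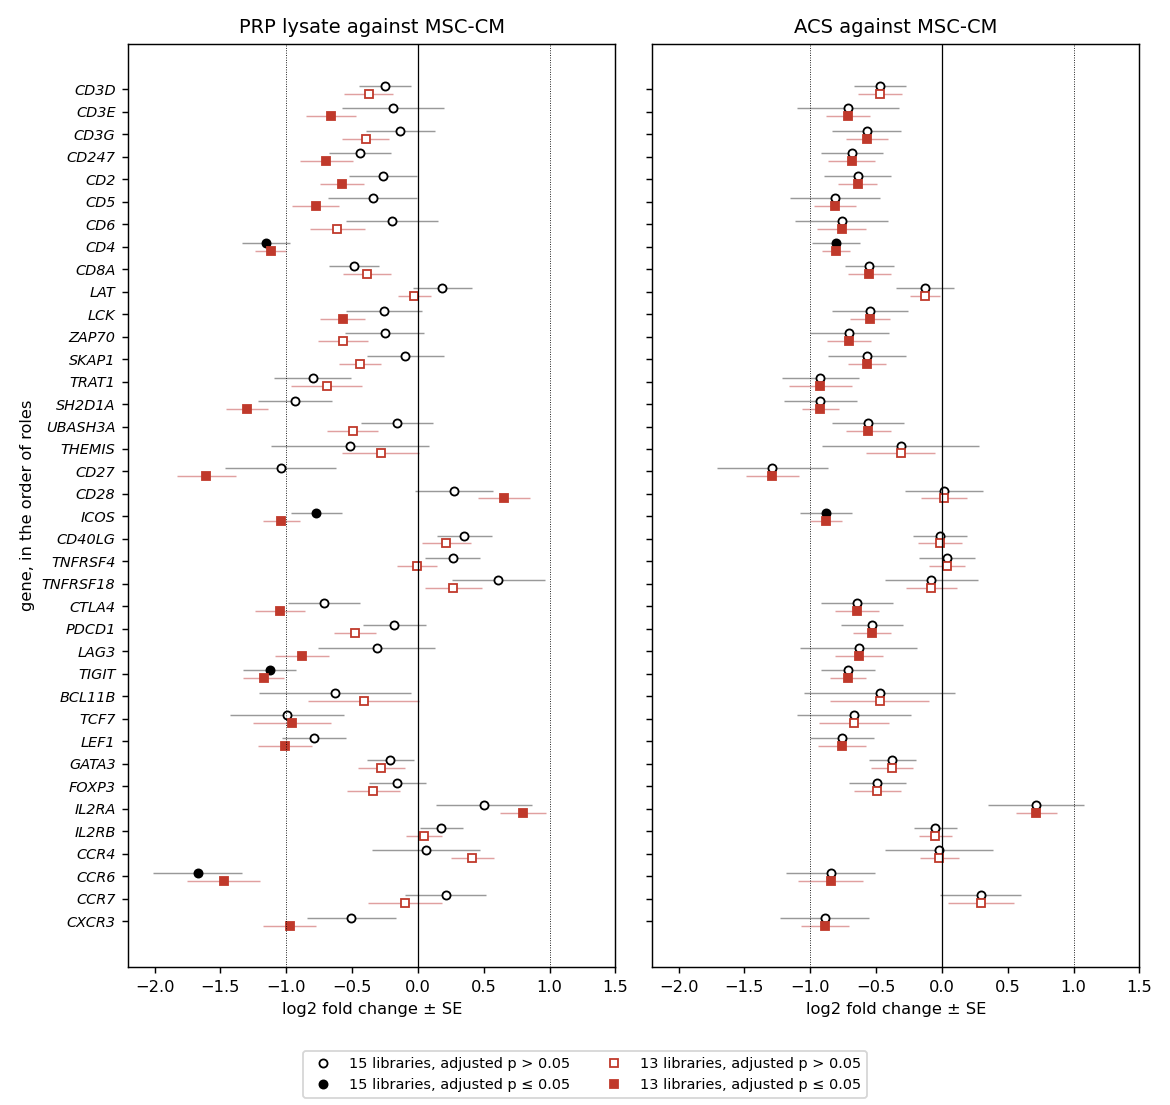
Log2 fold changes (horizontal axis, ± standard error) of the 38 tested members in PRP lysate and in ACS, both against MSC-CM, with all 15 libraries (circles) and without IL-1ß replicate 3 and PRP lysate replicate 1 (squares), filled at an adjusted p of at most 0.05. With all libraries CD4, ICOS, TIGIT and CCR6 are filled on the left panel and CD4 and ICOS on the right one, against 18 and 24 members without the 2 libraries.

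The coreceptor CD4 binds class II molecules on the presenting cell and is also made by monocytes of several species. CD4 (ENSECAG00000009049, chromosome 6, 35296234 to 35317001) was at 389, 381 and 381 CPM untreated, 454, 403 and 249.6 CPM with IL-1ß and 399, 439 and 535 CPM with MSC-CM. It was at 194, 199.6 and 218 CPM with PRP lysate and 249, 265 and 266 CPM with ACS. All PRP lysate libraries were below every library of the other 4 conditions, and all ACS libraries were below every untreated and MSC-CM library, while IL-1ß replicate 3 fell among the ACS libraries. CD4 fell to 0.450 of its MSC-CM level with PRP lysate, a log2 fold change of -1.15 ± 0.18 (limma, adjusted p = 0.00285), and every alternative kept an adjusted p of at most 0.0444. The change from IL-1ß alone was -0.81 ± 0.18 (adjusted p = 0.0213), short of 2-fold, and -1.03 without the 2 libraries that stood apart. It no longer passed when IL-1ß replicate 1 or 2 or PRP lysate replicate 2 or 3 was left out, and the highest adjusted p over its alternatives was 0.388. ACS against MSC-CM gave -0.80 ± 0.18 (adjusted p = 0.0419), which was lost when any 1 of the 6 ACS and MSC-CM libraries was left out (adjusted p up to 0.225). ACS against IL-1ß did not pass with all libraries (-0.46, adjusted p = 0.194) but did without the 2 that stood apart (-0.72, adjusted p = 0.00326). Relative to the 4 CD3 chains, CD4 was at 121%, 116% and 80.4% of their sum in untreated libraries and at 20.8%, 47.6% and 42.7% with PRP lysate. PRP lysate replicate 1 joined the second highest CD3E with the lowest CD4 of all libraries. The neighbouring gene LAG3, 13.2 kb away, encodes an inhibitory receptor that binds the same class II molecules. It was at 479, 135 and 160.3 CPM with PRP lysate and 276, 287 and 253 CPM with MSC-CM, a difference of -0.31 ± 0.45 (limma, adjusted p = 0.891). Leaving out the 2 libraries that stood apart, it was -0.88 and passed (adjusted p = 0.0111).

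CD8A (ENSECAG00000013261, chromosome 15, 18492750 to 18497356) encodes a chain of the coreceptor of cytotoxic T cells. Its levels stayed between 11.8 and 21.5 CPM, with 17.6 ± 3.38 CPM untreated, 16.98 ± 2.75 CPM with IL-1ß, 19.6 ± 2.17 CPM with MSC-CM, 13.8 ± 2.40 CPM with PRP lysate and 13.1 ± 0.962 CPM with ACS (mean ± SD of 3 libraries). The fold change of ACS against MSC-CM was -0.55 ± 0.19 (adjusted p = 0.181), with all ACS libraries below all MSC-CM libraries, and it passed without the 2 libraries that stood apart (adjusted p = 0.0402). CD2, CD5 and CD6, the adhesion and modulating receptors of the same group, had fold changes of -0.64, -0.81 and -0.76 in that comparison, and all 3 passed without the 2 libraries.

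LCK (ENSECAG00000023256, chromosome 2, 24528617 to 24535269) and ZAP70 (ENSECAG00000011012, chromosome 15, 11800271 to 11820459), the kinases next to the receptor, were at 119 ± 27.9 and 145 ± 36.1 CPM untreated, 182 ± 71.2 and 270.04 ± 111 CPM with IL-1ß, 196 ± 6.69 and 279 ± 21.8 CPM with MSC-CM, 173 ± 71.6 and 246 ± 102 CPM with PRP lysate and 135 ± 23.4 and 171 ± 24.4 CPM with ACS. For ZAP70 the difference of IL-1ß from untreated was 0.85 ± 0.30 (adjusted p = 0.258), and that of ACS from MSC-CM -0.70 ± 0.30 (adjusted p = 0.322). The first was 0.53 without the 2 libraries (adjusted p = 0.145), while the second passed (adjusted p = 0.0156). LCK then passed against MSC-CM with PRP lysate (-0.57, adjusted p = 0.038) and ACS (-0.55, adjusted p = 0.031), but not with all libraries (adjusted p = 0.843 and 0.446). LAT, the adaptor that ZAP70 phosphorylates, ranged from 131 to 269 CPM, with a difference of -0.13 ± 0.22 between ACS and MSC-CM. SH2D1A, the adaptor of SLAM family receptors that is needed for help to B cells, was at 17.3, 20.3 and 18.9 CPM with MSC-CM, 16.3, 6.74 and 7.32 CPM with PRP lysate and 8.40, 8.72 and 11.4 CPM with ACS. Every MSC-CM library was thus above every library of the other 2 OTs, with PRP lysate replicate 1 the nearest. Its fold changes were -0.93 ± 0.28 (adjusted p = 0.088) and -0.92 ± 0.28 (adjusted p = 0.131), and without the 2 libraries -1.30 (adjusted p = 1.93e-04) and -0.92 (adjusted p = 0.00146). TRAT1, which stabilizes the receptor complex at the surface, ranged from 3.44 to 13.3 CPM and differed by -0.92 ± 0.29 between ACS and MSC-CM (adjusted p = 0.149), which passed without the 2 libraries (adjusted p = 0.0229).

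**Figure D4:**
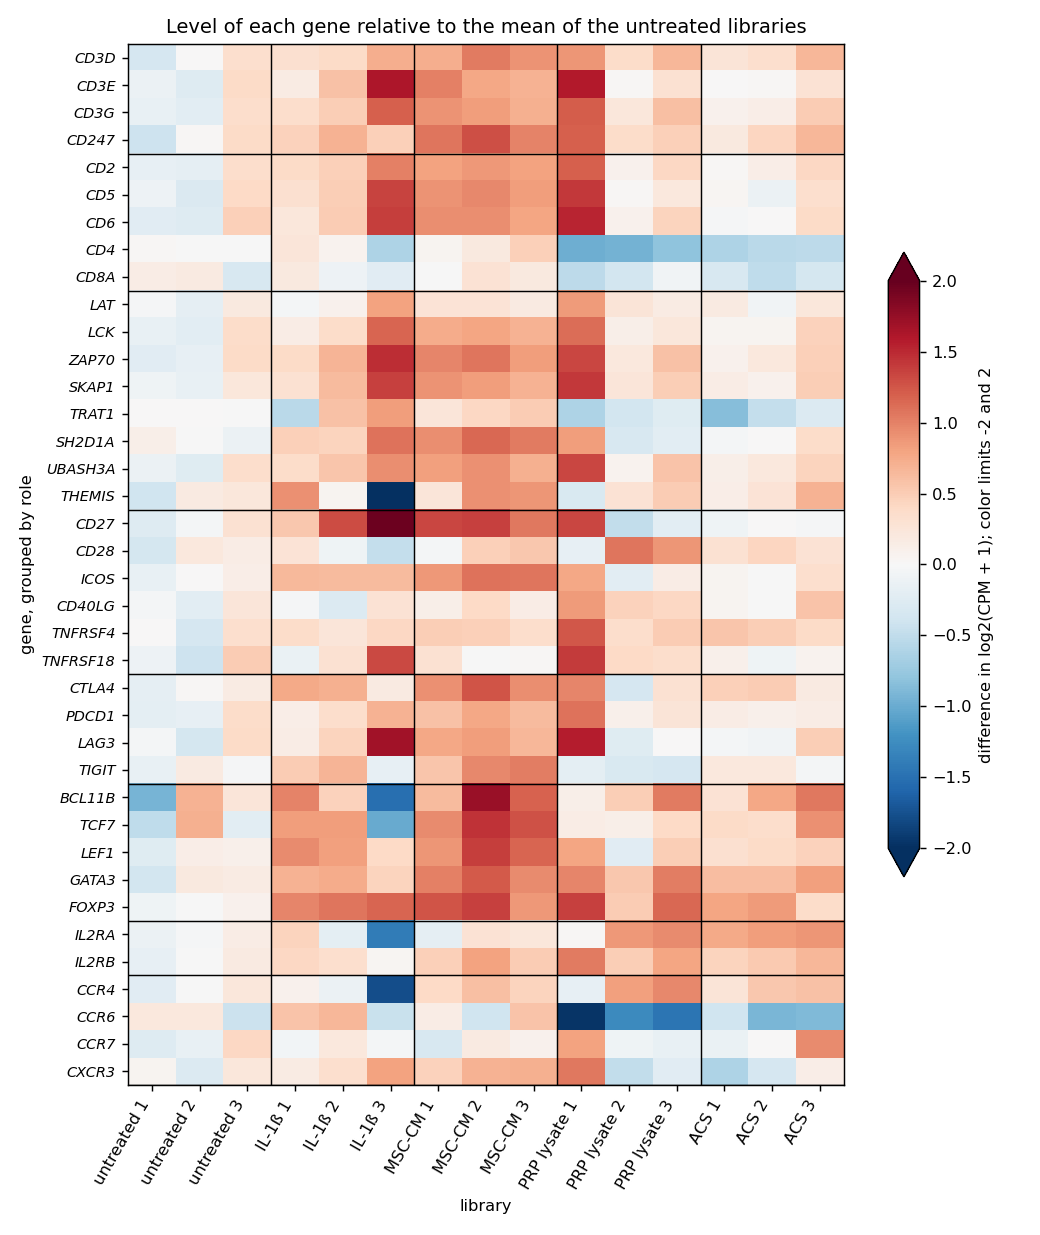
Difference in log2(CPM + 1) from the mean of the untreated libraries for the 38 tested members (rows, in the order of roles) in the 15 libraries (columns), with colors limited to -2 and 2. Red is higher and blue lower than untreated. The MSC-CM columns are red in nearly all rows, CD4 and CCR6 are blue under PRP lysate and ACS, IL2RA is red there except in PRP lysate replicate 1, and IL-1ß replicate 3 is dark blue for THEMIS, BCL11B and CCR4.

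Of the costimulatory receptors, ICOS had its highest mean with MSC-CM and CD28 with PRP lysate. ICOS (ENSECAG00000006253, chromosome 18, 78693982 to 78742098), which is induced on activated and follicular helper T cells, was at 277, 309 and 338 CPM untreated and 482, 478 and 476 CPM with IL-1ß. It was at 560.1, 649.6 and 647 CPM with MSC-CM, 523, 266 and 339 CPM with PRP lysate and 317, 304 and 389 CPM with ACS. The 3 IL-1ß libraries were above all untreated ones, the 3 MSC-CM libraries were above all others, and ACS libraries overlapped with untreated ones. Against MSC-CM, ICOS was lower with PRP lysate, at a log2 fold change of -0.77 ± 0.20 (limma, adjusted p = 0.0441), and with ACS, at -0.88 ± 0.20 (adjusted p = 0.039). Neither passed when any 1 of the 6 libraries compared was left out, except without PRP lysate replicate 1, where PRP lysate passed. The first was -1.04 (adjusted p = 3.41e-04) without the 2 libraries that stood apart. Under edgeR the adjusted p values were 0.154 and 0.0759. CD28 (ENSECAG00000022853, chromosome 18, 78431889 to 78527375), the main costimulatory receptor, lies on the same chromosome, with CTLA4 101 kb from CD28 and ICOS 59.9 kb beyond it. CD28 was at 45.3, 67.6 and 64.6 CPM untreated, 70.7, 54.98 and 41.5 CPM with IL-1ß, 56.8, 81.5 and 84.8 CPM with MSC-CM, 51.8, 124 and 109 CPM with PRP lysate and 72.3, 78.6 and 71.4 CPM with ACS. Replicates 2 and 3 of PRP lysate held the highest levels of all, and replicate 1 was below every MSC-CM library. With all libraries the difference from MSC-CM was 0.27 ± 0.30 (adjusted p = 0.834), and without the 2 libraries it was 0.66 (adjusted p = 0.0386).

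CD27, a costimulatory receptor of the TNF receptor family carried by naive and memory T cells and by B cells, was at 9.14, 10.9 and 14.04 CPM untreated, 16.7, 29.2 and 46.5 CPM with IL-1ß, 29.8, 30.5 and 24.2 CPM with MSC-CM, 29.9, 7.63 and 9.54 CPM with PRP lysate and 10.5, 11.2 and 10.96 CPM with ACS. All IL-1ß libraries lay above all untreated ones, and all MSC-CM libraries above all ACS ones. The fold changes were 1.27 ± 0.42 (adjusted p = 0.231) for IL-1ß against untreated and -1.29 ± 0.42 (adjusted p = 0.163) for ACS against MSC-CM. Both passed without the 2 libraries, at 0.92 (adjusted p = 0.0491) and -1.29 (adjusted p = 0.0015). TNFRSF4 and TNFRSF18 (OX40 and GITR), neighbouring genes of receptors raised on activated and regulatory T cells, differed by 0.27 ± 0.21 and 0.61 ± 0.35 between PRP lysate and MSC-CM, and CD40LG, the ligand by which helper T cells activate CD40-bearing cells, by 0.35 ± 0.21. Leaving out the 2 libraries, these differences were -0.01, 0.27 and 0.21. None of these 3 passed the adjusted p in any comparison, with or without the 2 libraries.

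Of the inhibitory receptors, TIGIT was called. TIGIT (ENSECAG00000016139, chromosome 19, 46499251 to 46516207) competes with CD226 for its ligands on presenting cells. It was at 40.02, 50.4 and 43.5 CPM untreated, 63.8, 71.9 and 39.7 CPM with IL-1ß and 65.9, 87.4 and 91.1 CPM with MSC-CM. With PRP lysate it was at 38.9, 35.6 and 34.8 CPM and with ACS at 51.7, 51.8 and 43.4 CPM. The PRP lysate libraries were below all libraries of the other conditions, and the MSC-CM libraries were above all PRP lysate and ACS libraries. TIGIT fell to 0.458 of its MSC-CM level with PRP lysate, a log2 fold change of -1.13 ± 0.20 (limma, adjusted p = 0.00648), and every alternative kept an adjusted p of at most 0.0479. For PRP lysate against IL-1ß and for ACS against MSC-CM it did not pass with all libraries (adjusted p = 0.109 and 0.111) but did without the 2, at -0.92 (adjusted p = 0.00378) and -0.71 (adjusted p = 0.00524). CTLA4 (ENSECAG00000003996, chromosome 18, 78628448 to 78634039), which takes the ligands of CD28, was at 20.8, 24.1 and 26.7 CPM untreated, 40.9, 39.4 and 26.9 CPM with IL-1ß, 45.7, 57.9 and 46.2 CPM with MSC-CM, 47.9, 18.6 and 29.7 CPM with PRP lysate and 33.3, 34.2 and 27.2 CPM with ACS. PRP lysate replicate 1 fell within the MSC-CM range, whereas the other 2 were below it. The fold change of PRP lysate against MSC-CM was -0.71 ± 0.28 (adjusted p = 0.217), and -1.05 (adjusted p = 0.00262) without the 2 libraries. It then passed as well for PRP lysate against IL-1ß (-0.75, adjusted p = 0.0397) and for ACS against MSC-CM (-0.64, adjusted p = 0.0245). PDCD1, which encodes the receptor PD-1, ranged from 40.7 to 100.2 CPM and differed by -0.53 ± 0.24 between ACS and MSC-CM (adjusted p = 0.351), which passed without the 2 libraries (adjusted p = 0.0261).

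**Figure D5:**
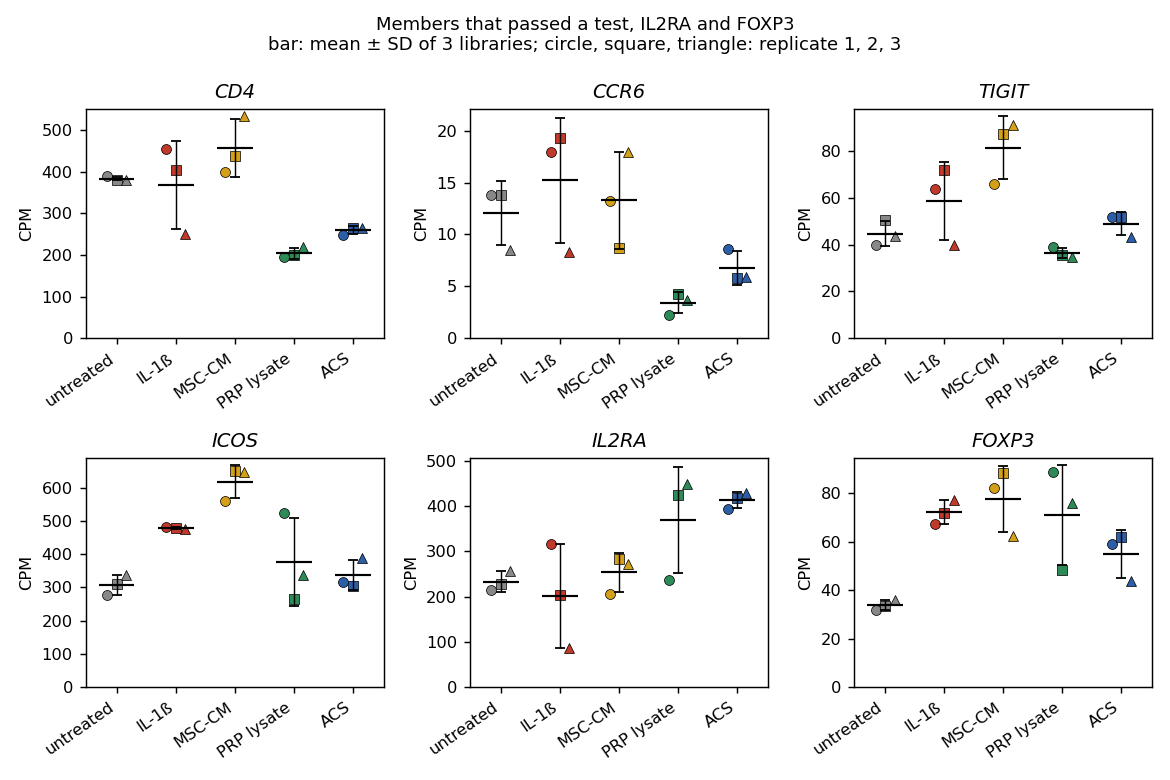
Levels in CPM (vertical axis, from 0) of the members that passed an adjusted p of 0.05 in any comparison with all libraries (CD4, CCR6, TIGIT and ICOS), and of IL2RA and FOXP3, in each library with the mean and SD of 3. The PRP lysate libraries are lowest for CD4, CCR6 and TIGIT, the MSC-CM libraries are highest for ICOS, and the untreated libraries are lowest for FOXP3.

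Among the transcription factors, FOXP3 (ENSECAG00000022667, chromosome X, 41083057 to 41096913) was at 31.9, 33.6 and 35.98 CPM untreated and 67.5, 72.04 and 77.2 CPM with IL-1ß. It was at 82.1, 88.4 and 62.3 CPM with MSC-CM, 88.9, 48.2 and 75.9 CPM with PRP lysate and 59.1, 62.1 and 43.7 CPM with ACS. All 12 libraries that had received IL-1ß were above all 3 untreated libraries. The test against untreated gave an adjusted p of 0.0558, and 0.0219 without the 2 libraries that stood apart. GATA3 (ENSECAG00000024574, chromosome 29, 27171956 to 27191305), the factor of type 2 helper cells that all T cells also need to develop, was at 63.1 ± 12.9 CPM untreated, 97.02 ± 10.1 CPM with IL-1ß, 131 ± 13.6 CPM with MSC-CM, 114 ± 20.3 CPM with PRP lysate and 100.3 ± 8.34 CPM with ACS. Its untreated libraries lay below all others as well, and the difference of IL-1ß was 0.63 ± 0.18 (adjusted p = 0.167). TCF7 and LEF1, the related factors of naive and memory T cells, had their highest means with MSC-CM, at 43.6 ± 7.64 and 47.01 ± 8.32 CPM. For TCF7 the fold change of PRP lysate against MSC-CM was -0.99 (adjusted p = 0.299), and -0.96 without the 2 libraries (adjusted p = 0.043). For LEF1 the fold change of PRP lysate against MSC-CM was -0.79 ± 0.24 (adjusted p = 0.101), and -1.01 without the 2 libraries (adjusted p = 0.00517). BCL11B, which holds cells in the T lineage and spans 106 kb, was at 17.2, 11.7 and 2.25 CPM in the IL-1ß libraries, the last of them the one that stood apart, and at 3.81, 13.8 and 9.89 CPM untreated, so the replicates spread widely in both conditions.

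The alpha chain of the interleukin 2 receptor had its highest means with ACS and PRP lysate. IL2RA (ENSECAG00000018057, chromosome 29, 29007364 to 29056479), or CD25, marks regulatory and activated T cells and is also induced on activated myeloid cells. It was at 214, 228 and 258 CPM untreated, 316, 203 and 87.2 CPM with IL-1ß, 205, 284 and 271 CPM with MSC-CM, 236, 425 and 449.9 CPM with PRP lysate and 394, 418 and 428 CPM with ACS. All ACS libraries lay above all untreated, IL-1ß and MSC-CM libraries, and so did PRP lysate replicates 2 and 3, but replicate 1 did not. With all libraries the fold changes were 1.21 ± 0.36 against IL-1ß (adjusted p = 0.0952) and 0.72 ± 0.36 against MSC-CM (adjusted p = 0.424) for ACS. Without the 2 libraries they were 0.70 (adjusted p = 0.0319) and 0.72 (adjusted p = 0.00985), and both passed without reaching 2-fold. IL2RB, the beta chain of the same receptor, which natural killer cells carry too, differed by 0.51 ± 0.16 between PRP lysate and IL-1ß (adjusted p = 0.0955), and by 0.27 without the 2 libraries. IL2, the growth factor of T cells, was detected in every library by 8 to 81 reads, 0.215 to 1.84 CPM, and its mean was just under the 1 CPM needed for a test. Without that filter its adjusted p was 0.564 to 0.965 over the 7 comparisons (limma). IL7R, which holds T cells alive between stimuli, had 1 read in IL-1ß replicate 2 and 0 reads in the other 14 libraries. Its row is among the 12 that join a pair of Ensembl identifiers, and the count is not read as absence of the transcript.

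Homing receptors held the largest fold change among the members. CCR6 (ENSECAG00000005185, chromosome 31, 2987872 to 3018801), the receptor for CCL20 on type 17 helper cells and on some B and dendritic cells, was at 13.8, 13.8 and 8.48 CPM untreated, 17.98, 19.3 and 8.33 CPM with IL-1ß and 13.2, 8.69 and 17.97 CPM with MSC-CM. With PRP lysate it was at 2.28, 4.26 and 3.66 CPM, and with ACS at 8.65, 5.77 and 5.89 CPM. Every PRP lysate library was below every other library, and the ACS libraries overlapped with the lowest untreated and IL-1ß libraries. CCR6 fell to 0.282 of its IL-1ß level (log2 fold change -1.83 ± 0.34, limma, adjusted p = 0.00642) and to 0.314 of its MSC-CM level (-1.67 ± 0.34, adjusted p = 0.0121) on the log2(CPM + 1) scale, which shrinks the change of a gene at this level. With only the 6 libraries compared, both calls were lost (adjusted p = 0.148 and 0.053). From recovered reads edgeR gave -2.21 and -1.92. Same-numbered PRP lysate and MSC-CM libraries deviated together from their condition means (r = 0.63, 0.26 and 0.42). PRP lysate replicate 2 was closer to an MSC-CM library of another number (r = 0.47), so the pairing by number is uncertain. With the replicate number as a block, the CCR6 call against MSC-CM was lost (adjusted p = 0.0859) and so was the adjusted p of ICOS (0.18), while CD4 and TIGIT passed at 0.0444 and 0.0479. The call against IL-1ß was lost in the same fit (adjusted p = 0.0559). That fit also held untreated and IL-1ß libraries, for which not every same-numbered pair deviated together. A block on the PRP lysate and MSC-CM libraries alone kept the CCR6 call (adjusted p = 0.0124) and left ICOS at 0.0828. The CCR6 call was also lost without MSC-CM replicate 1 (fold change -1.65) or replicate 3 (-1.44). Differences between PRP lysate and ACS (-0.83 ± 0.34, adjusted p = 0.842) did not pass.

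CCR7 (ENSECAG00000004945, chromosome 11, 22101809 to 22126328), the receptor that leads naive T cells and mature dendritic cells to lymph nodes, was at 146, 159 and 234 CPM untreated, 169, 203 and 171 CPM with IL-1ß, 141, 199 and 186 CPM with MSC-CM, 309, 166 and 158 CPM with PRP lysate and 161, 177 and 341 CPM with ACS. A single high library stood in each of the PRP lysate and ACS conditions and no comparison passed. CCR4, which binds CCL17 and CCL22 and marks type 2 helper, regulatory and skin-homing T cells, was at 14.3, 12.4 and 3.25 CPM with IL-1ß and 11.9, 24.6 and 27.1 CPM with PRP lysate, a difference of 1.14 ± 0.41 (adjusted p = 0.15) and, without the 2 libraries, 0.91 (adjusted p = 0.00629). CXCR3, the receptor of type 1 helper and cytotoxic cells for CXCL9, CXCL10 and CXCL11, was at 51.6, 60.6 and 61.5 CPM with MSC-CM and 24.03, 29.2 and 41.1 CPM with ACS. Those libraries did not overlap, with a fold change of -0.89 ± 0.34 (adjusted p = 0.244), and it passed without the 2 libraries (adjusted p = 0.00724), as did PRP lysate against MSC-CM (-0.97, adjusted p = 0.00623).

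Of 56 other listed genes of T cell receptor signaling, 52 were tested, and the calls were CD69, an early activation marker of lymphocytes and other leukocytes, and SLA, an adaptor that limits the receptor level. There was 1 call in PRP lysate against IL-1ß (background 3.09%), 2 in ACS against IL-1ß (2.21%) and 1 in ACS against MSC-CM (1.23%). CD69 was higher with PRP lysate than with IL-1ß (1.09 ± 0.21, limma, adjusted p = 0.00796), and higher with ACS than with IL-1ß (1.22 ± 0.21) or MSC-CM (1.01 ± 0.21). SLA was higher with ACS than with IL-1ß (1.03 ± 0.24, adjusted p = 0.0339), and under 2-fold without the 2 libraries that stood apart (0.78). When each compared library was left out in turn, CD69 passed in 1 of 6 fits for ACS against MSC-CM and SLA in 2 of 6, and CD69 passed in all 6 against IL-1ß in both. The median of the 52 genes was 0.49 with MSC-CM against IL-1ß and -0.26 with ACS against MSC-CM, with 0 and 1 genes called and medians of 0.16 and -0.04 over all genes. The 0.49 includes IL-1ß replicate 3, which was far below replicates 1 and 2 for genes such as ETS1, RASGRP1 and IKZF1. ETS1 was at 325, 257 and 106 CPM in IL-1ß replicates 1 to 3. CSK, SIT1 and WAS were instead highest in replicate 3, and the median without it is not given.

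Ligands of these receptors are made mainly by the presenting cells. Of 34 listed, 26 were tested, and 5 were called in PRP lysate (background 3.09%) and 4 in ACS (2.21%) against IL-1ß. Against MSC-CM 5 were called in each, with backgrounds of 2.61% and 1.23%. In IL-1ß against untreated 1 was called (background 0.292%), and in MSC-CM against IL-1ß 0 (background 0.0%), where 2 were lower at an unadjusted p of at most 0.05 (background 0.697%). CD40, the partner of CD40LG on presenting cells, had means of 68.6 ± 10.2 CPM with IL-1ß, 69.6 ± 14.7 CPM with MSC-CM, 168 ± 19.4 CPM with PRP lysate and 198 ± 24.5 CPM with ACS, and was called higher in PRP lysate and ACS against IL-1ß and MSC-CM, with fold changes of 1.29, 1.52, 1.28 and 1.51. CCL17 and CCL22, the ligands of CCR4, were higher in the same 4 comparisons, with fold changes against IL-1ß of 2.67 and 3.36 for CCL22 and 2.41 and 2.62 for CCL17. CD72, listed as a ligand of CD5, was lower in all 4, with -1.92 and -1.54 against IL-1ß. CXCL10, a ligand of CXCR3, was lower with IL-1ß than in untreated cultures (-1.56 ± 0.30, adjusted p = 0.0495), and CXCL11 was lower with PRP lysate than with IL-1ß (-1.90 ± 0.39, adjusted p = 0.0129). TNFSF9, the ligand of 4-1BB, was higher with PRP lysate than with MSC-CM (1.04), and VSIR, which encodes the inhibitory protein VISTA, was lower with ACS than with MSC-CM (-1.09). When each compared library was left out in turn, CXCL10 passed in 0 of 6 fits, VSIR in 2 and CXCL11 in 5, and CCL17 against MSC-CM in 5 for PRP lysate and 3 for ACS.

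Some markers of macrophages were lower in the same comparisons as CD4, CCR6 and TIGIT, while others were not. CD163, a scavenger receptor of macrophages, was at 563 ± 173 CPM with IL-1ß, 481 ± 203 CPM with MSC-CM, 11.4 ± 3.48 CPM with PRP lysate and 64.6 ± 24.98 CPM with ACS, a fold change of -5.25 ± 0.39 for PRP lysate against MSC-CM (limma, adjusted p = 1.94e-05). MERTK, the receptor for engulfment of dying cells, differed by -2.76 ± 0.21 in that comparison. Of the 12 macrophage markers, 3 were called lower there (background 2.61%) and 2 with ACS (background 1.23%), and 0 higher. The ACS calls were CD163 and MERTK, and MERTK passed in 0 of 6 fits that left out 1 compared library. CD68 and MSR1, a lysosomal protein and a scavenger receptor of macrophages, were not called, at 1430.2 and 135 CPM on average with MSC-CM, 1660.1 and 154 CPM with PRP lysate and 1631 and 155 CPM with ACS. The other uncalled markers, CD14, CSF1R, MARCO, MRC1, C1QB, ITGAM and SPI1, all had lower means with PRP lysate than with MSC-CM. CSF1R was at 182 against 374 CPM and MRC1 at 1385 against 2334 CPM. Over the 12 markers, the summed level was 2564 to 4600 CPM with PRP lysate, 4128 to 5478 CPM with ACS and 4818 to 5842 CPM with MSC-CM. The listed dendritic cell markers, which include CCL17 and CCL22, summed to 1220.1 to 1894 CPM, 1723 to 1997 CPM and 440.2 to 598 CPM in the same order. On average CCL17, CCL22 and FSCN1 made up most of this sum. Of the 7 tested dendritic cell markers, CCL17 and CCL22 were called higher with PRP lysate than with MSC-CM (background 2.61% in either direction). FLT3 and LAMP3 were called lower, and LAMP3 passed in 0 of 6 fits that left out 1 compared library. BATF3 was at 47.0 and 49.1 CPM on average with MSC-CM and PRP lysate. Platelet markers summed to 3.48 to 5.17 CPM in untreated libraries, 11.6 to 13.8 CPM with IL-1ß, 6.35 to 8.496 CPM with MSC-CM, 12.2 to 41.2 CPM with PRP lysate and 10.8 to 17.7 CPM with ACS, and of them PPBP, which encodes a chemokine of platelet granules, was called higher with PRP lysate than with MSC-CM, a call lost without PRP lysate replicate 3 (adjusted p = 0.0512). In IL-1ß against untreated, PPBP (2.12 ± 0.40, limma, adjusted p = 0.0471) and FLT3 (1.06 ± 0.20, adjusted p = 0.0494) were called higher (background 0.292%). Neither passed when any 1 of the 6 compared libraries was left out. The part of these cells in the changes of the T cell genes was not tested.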

How the data were processed

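Polyadenylated RNA of 15 cultures was sequenced, and the authors deposited CPM per gene. Per the study's methods and the labels, Partek Flow and cutadapt served for trimming at a Phred score of 20, STAR 2.7.3 for alignment to the genome build EquCab3.0, and HTSeq with an Ensembl annotation for counting. The strand setting and any filter on genes are not given in the sources used here. Trimming and unique assignment can lower genes with close relatives, and CPM shifts all genes when a few change strongly. The labels describe collection of cells right after the wash, the methods describe further culture.

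All 15 columns were matched to samples by name. Values were taken as log2(CPM + 1) and genes averaging at least 1 CPM were fitted with limma (intensity trend) in 1 model of 5 conditions for 7 comparisons, Benjamini-Hochberg adjusted within each. For edgeR and DESeq2, each library's CPM were divided by the value of a single read, with 99.7% of 253980 values whole within 0.1 read. Alternatives were a pseudocount of 0.1, no filter or a minimum of 0.1 CPM, TMM factors, RLE size factors, no fold threshold, only the 6 libraries compared, a replicate block and leaving out each library. The block used the 12 libraries whose titles carry replicate numbers, which ACS titles do not. ACS titles carry a name or letters instead, which the sources do not explain. The ACS replicates are numbered here in the order of their samples, so their numbers match those of no other condition. Same-numbered PRP lysate and MSC-CM libraries had correlated deviations from their condition means (r = 0.63, 0.26 and 0.42 across genes), all over 0.1, so the numbers were taken to pair them, although the closest library of another number reached -0.36, 0.47 and 0.39. Procedures were first tested on simulated data.

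The members and lists were chosen with earlier results of these data known. Full values are given for the CD3 chains, CD4, CD8A, LCK, ZAP70, CD28, CTLA4, ICOS, GATA3, FOXP3, IL2RA, IL7R and CCR7 and for members past a threshold. Others, among them CD27, SH2D1A and CD40LG, were named after their values were seen. With 3 libraries against 3, an exact permutation test cannot go below 0.1, so none was used. Fits were made in R 4.3.3 with DESeq2 1.42.0, edgeR 4.0.16 and limma 3.58.1, tables in pandas 2.3.3 under Python 3.11.15, and figures in matplotlib 3.10.9.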

Additional observations from a re-analysis of the deposited data

How the results depend on the processing

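Without the 2 libraries that stood apart, limma called 1 of the 38 members for IL-1ß against untreated, 3 for PRP lysate against IL-1ß, 1 for ACS against IL-1ß, 8 for PRP lysate against MSC-CM and 1 for ACS against MSC-CM, and edgeR called 0, 3, 2, 6 and 2 in these. Without these libraries, the limma backgrounds of lower genes against MSC-CM were 2.83% for PRP lysate and 1.27% for ACS. DESeq2 with all libraries called 1 for IL-1ß against untreated (background 1.24%), 2 for PRP lysate and 3 for ACS (background 4.01%) against IL-1ß. For the other counts in this section without a background, the share of all genes is not given. They show how calls moved with the setting and are not read as an excess among the members. Without a fold threshold 2 members passed for PRP lysate against IL-1ß and 2 for ACS against MSC-CM. With only the 6 libraries compared, the counts were 0 for PRP lysate against IL-1ß and 1 for ACS against MSC-CM. When each library was left out in turn, the counts ranged from 1 to 3 for PRP lysate against IL-1ß (3 when IL-1ß replicate 1 or PRP lysate replicate 1 was left out, 2 when IL-1ß replicate 3 was), from 0 to 3 for ACS against IL-1ß (3 when IL-1ß replicate 1 was left out, 1 when replicate 3 was), from 2 to 8 for PRP lysate against MSC-CM (8 without PRP lysate replicate 1), and stayed at 0 in the other 4 comparisons. The replicate block left 0 calls for PRP lysate against IL-1ß (CCR6 at an adjusted p of 0.0559) and 2 against MSC-CM, and a block on the 6 PRP lysate and MSC-CM libraries alone left 3. In the 3 comparisons with IL-1ß that could be checked, at least 1 same-numbered pair deviated in opposite directions (correlations from -0.77 to 0.54), so there they share only a number. ACS could not be checked. CCR6 also lost both calls with only 6 libraries. The cause of these differences was not tested. CD4, TIGIT and CCR6 kept their direction in every alternative. Of 200 mean levels, 184 moved by less than 1 SD with RLE size factors. IL2, just under the filter of 1 CPM, passed in no comparison without it. For IL7R, with 1 read in all, no difference was detectable at this depth.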
